A study of Mus musculus with 8 samples.

Results

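Protocadherins are cadherin-like adhesion proteins of the cell surface, and the genes taken here were all those whose symbol starts with Pcdh in the day 5 or day 0 tables. This rule gave 70 genes of 22717 features in all. They fell into 14 Pcdha genes, 22 Pcdhb genes, 22 Pcdhg genes and 12 genes outside the clusters. All 70 were listed in at least 1 day 5 file and 66 in the day 0 table, where Pcdha1, Pcdha8, Pcdha11 and Pcdhac1 were not listed and were taken as 0.

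The study measured polyadenylated RNA of mouse 46C cells, an embryonic stem cell line of C57BL/6 strain per the labels, with 1 library in each of 8 groups. The groups were a line labelled LincNDIME_KO (KO), wild type (WT), cells carrying a short hairpin directed at Mef2c (shMef2c) and cells carrying a control hairpin (shCtrl). Each was profiled at day 5, after aggregation in medium with knockout serum replacement had given cells labelled neural progenitors, and at day 0, as stem cells on irradiated fibroblast feeders with serum and the cytokine LIF. NDIME is a noncoding RNA that the study's title sets in an axis with Mef2c, which encodes a transcription factor active in neurons and muscle. The comparisons therefore ask what each perturbation goes with during neural differentiation.

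The clustered protocadherin genes lie side by side on mouse chromosome 18 in the order Pcdha, Pcdhb, Pcdhg. A neuron chooses a few of their promoters, largely at random, and the resulting mix of surface proteins lets its branches recognise and avoid one another. In Pcdha and Pcdhg each variable exon is spliced to constant exons shared by the whole cluster, whereas each Pcdhb gene is a single exon without them. Non-clustered protocadherins have their own promoters and act in cell sorting, axon growth and synapse formation.

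Single libraries allow no test, so p-values are absent and all statements describe these cultures. Because cluster members share exons or have near-identical sequence, the split of reads among them is uncertain, and sums over a cluster are given first. Mef2c, the target of the hairpin, stood at 0.12 FPKM in shMef2c and 0.50 FPKM in shCtrl at day 5, and at 0.10 FPKM in KO and 0.45 FPKM in WT. At day 0 it stood at 0.37 RPKM (44 reads) in the library labelled shMef2c and 0.16 RPKM (20 reads) in shCtrl. That order runs against the label. Between 25996204 and 26834802 estimated reads were assigned to genes in the day 5 libraries, and between 20312032 and 20883674 in the day 0 libraries.

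At day 5 the Pcdhb genes together took far fewer reads in both perturbed cultures than in either control culture. In reads per 1000000 assigned reads (RPM), they took 14.2 in KO and 47.4 in WT, and 12.2 in shMef2c and 70.5 in shCtrl. These sums rest on 376 reads in KO, 1272 in WT, 326 in shMef2c and 1834 in shCtrl. The ratio of these shares, KO over WT, was 0.299, and its exact 95% counting interval ran from 0.266 to 0.336. In shMef2c it was 0.174 times that in shCtrl (0.154 to 0.195). Both perturbed libraries lay below both controls, and their sums differed little from each other, at 1.16 for KO over shMef2c (0.996 to 1.35). Without Pcdhb11 and Pcdhb22 the KO over shMef2c ratio was 1.36 (1.13 to 1.64). The control libraries themselves differed by 1.49 for shCtrl over WT (1.38 to 1.60). These intervals cover counting error only, and differences between cultures add to it. In bulk RNA, fewer cells of a type and less RNA per cell cannot be told apart.

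The other sets differed less. Pcdha genes took 6.32 RPM in KO and 9.34 in WT, a ratio of 0.674 (0.551 to 0.823), and 5.09 in shMef2c and 15.2 in shCtrl, a ratio of 0.335 (0.273 to 0.408). Pcdhg genes took 111 in KO and 187 in WT, a ratio of 0.592 (0.566 to 0.620). They took 134 in shMef2c and 156 in shCtrl, a ratio of 0.855 (0.817 to 0.894), a difference no larger than that between the controls, at 0.835 for shCtrl over WT (0.801 to 0.870). The non-clustered genes took 87.9 in KO and 145 in WT, a ratio of 0.608 (0.577 to 0.640), and 105 in shMef2c and 167 in shCtrl, a ratio of 0.628 (0.598 to 0.659). Among the 3 clusters, Pcdhb was thus the one with the lowest ratio in both comparisons, and Pcdhg carried most of the reads in every library.

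**Figure D1:**
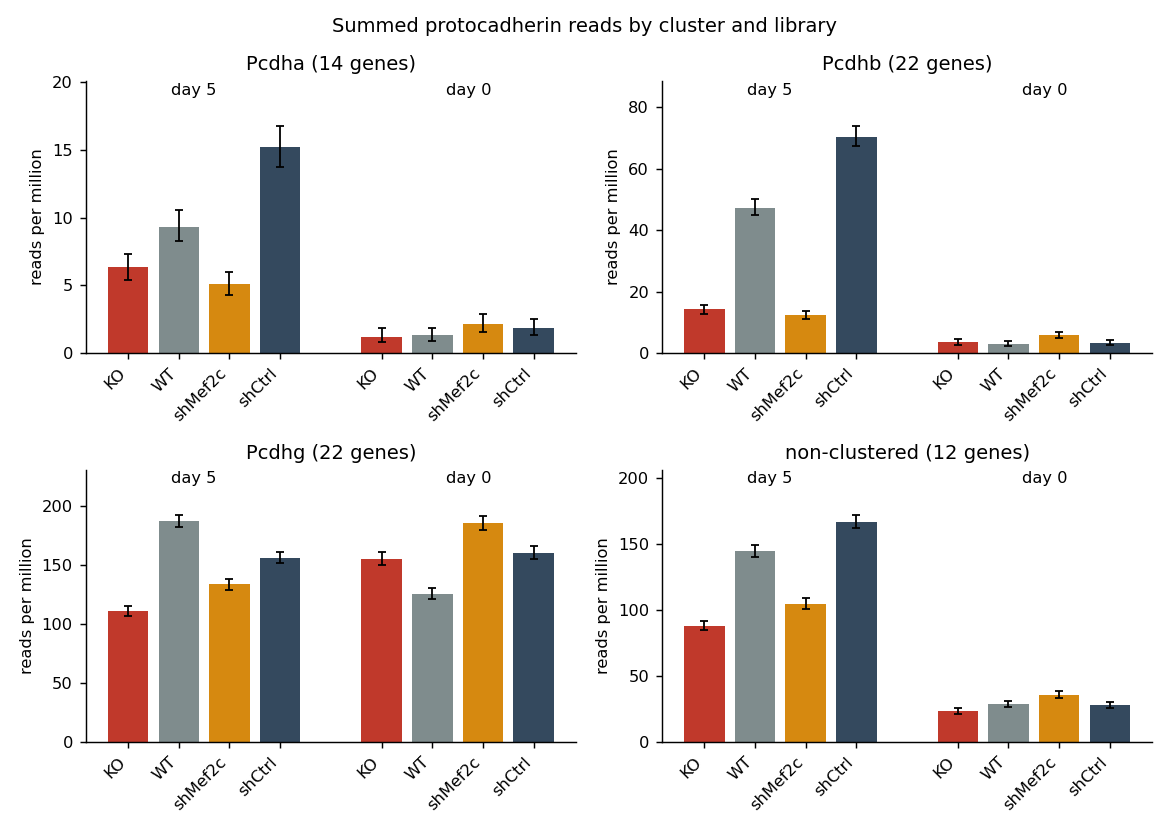
Summed reads of each protocadherin set in RPM (vertical axes), in the 4 day 5 and the 4 day 0 libraries (horizontal axes); bars are single libraries and error bars are exact 95% Poisson intervals for counting error. The Pcdhb bars of KO (14.2) and shMef2c (12.2) at day 5 lie below those of WT (47.4) and shCtrl (70.5), while for Pcdhg the WT bar is taller at day 5 (187, against 126 at day 0) and the KO bar is shorter (111, against 155 at day 0).

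The deficit of Pcdhb reads was spread along the whole cluster. In KO, 21 of the 22 genes had a smaller share of reads than in WT, against 48% of all features with any read in this pair, and 20 of them were 2-fold or more lower. Of those features 12.7% were 2-fold or more lower, and 22.3% were among those with no more reads than the most abundant Pcdhb gene. The exception was Pcdhb1, with 1 read in KO and 0 in WT. The counting interval of the ratio lay wholly below 1 for 19 genes, and the median ratio was 0.328. In shMef2c all 22 genes had a smaller share than in shCtrl, against 53.8% of all features with a read in that pair. All 22 were also 2-fold or more lower, against 15.2% of those features and 25.3% of those in the same range of reads. There the interval lay below 1 for 21 genes, and the median ratio was 0.160.

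Single Pcdhb genes were scarce, so their values are given in every library. Pcdhb22, at the Pcdhg end of the cluster, stood at 0.90 FPKM in KO and 2.82 in WT, and at 1.33 in shMef2c and 3.91 in shCtrl. Pcdhb11 stood at 0.35 FPKM in KO and 1.86 in WT, and at 0.20 in shMef2c and 3.18 in shCtrl. For both genes each perturbed library was below each control library. Pcdhb17 stood at 0.46 FPKM in KO and 1.22 in WT, and at 0.40 in shMef2c and 1.59 in shCtrl. Pcdhb3 stood at 0.35 FPKM in KO and 0.89 in WT, and at 0.28 in shMef2c and 1.32 in shCtrl. The same order held for Pcdhb20, at 0.33 FPKM in KO and 0.86 in WT, and at 0.17 in shMef2c and 0.96 in shCtrl. Pcdhb8 and Pcdhb9 had 0 reads in KO, where WT had 16.2 and 9.06 reads, and they had 4.31 and 2.00 reads in shMef2c, where shCtrl had 24.3 and 11.

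On the log2(value + 1) scale, which compresses low values, and among genes whose mean in a pair of libraries was 1 or more, Pcdhb11 and Pcdhb22 were the Pcdhb genes called 2-fold lower in both comparisons. Pcdhb11 had a log2 ratio of -1.08 in KO over WT and of -1.80 in shMef2c over shCtrl. Pcdhb22 had -1.01 and -1.08 in the same pairs. Without these 2 genes the remaining Pcdhb sum still stood at 0.317 for KO over WT (0.276 to 0.364) and 0.159 for shMef2c over shCtrl (0.136 to 0.185).

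Which Pcdhb genes were abundant was similar in the 4 day 5 libraries. Across the 22 genes, Spearman's rho of the levels was 0.878 between KO and WT, 0.873 between shMef2c and shCtrl and 0.956 between shCtrl and WT. Genes are not independent replicates, and these coefficients share gene length and sequence content, so they are a description. The profile along the cluster was lower in the perturbed cultures, with Pcdhb11, Pcdhb17 and Pcdhb22 as local peaks in KO, WT and shCtrl. In shMef2c, Pcdhb11 was a minor peak, and at 0.20 FPKM it lay below Pcdhb3 (0.28) and Pcdhb17 (0.40).

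**Figure D2:**
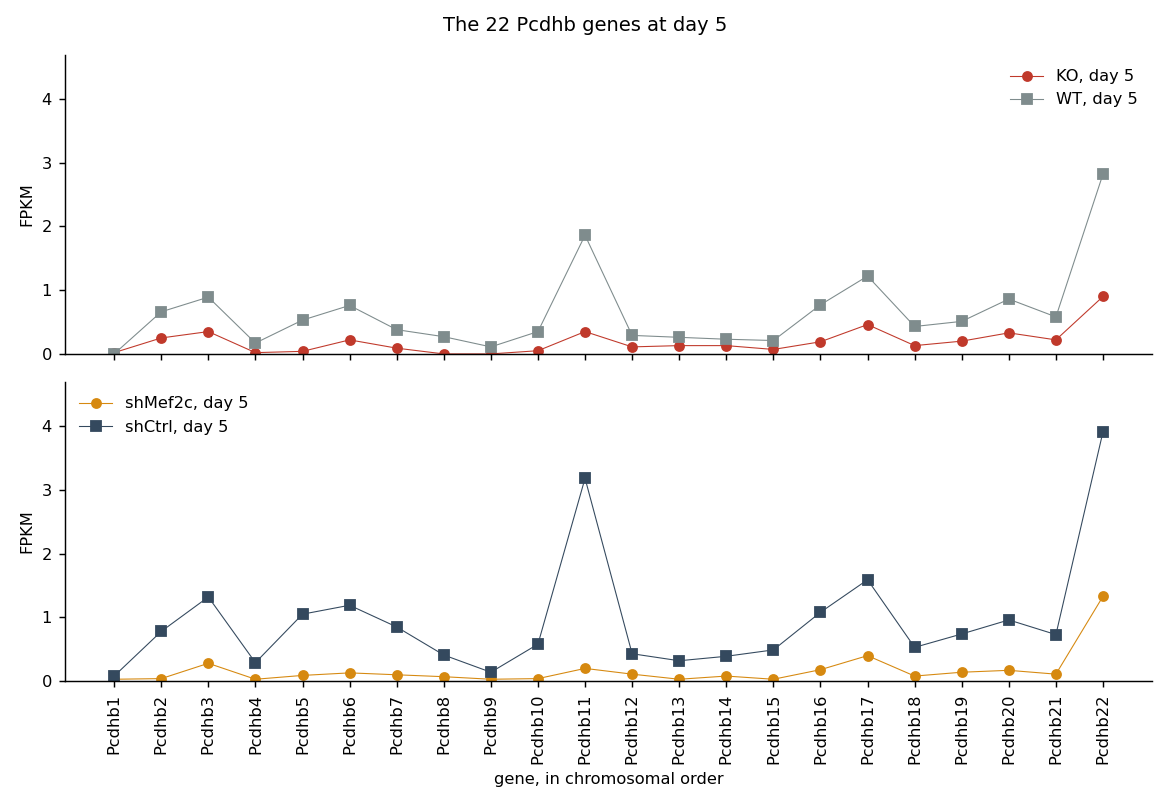
FPKM (vertical axes) of the 22 Pcdhb genes in chromosomal order (horizontal axis) at day 5, in KO and WT (upper panel) and in shMef2c and shCtrl (lower panel); each point is a single library and the lines only join neighbours. Points of the perturbed library lie below those of its control at every gene except Pcdhb1 in KO (0.02 against 0 in WT).

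Pcdha genes were scarcer still, with no gene above 0.56 FPKM in any library. The cluster holds 12 alternate genes, Pcdha1 to Pcdha12, followed by Pcdhac1 and Pcdhac2, the C-type genes, which neurons use less at random and of which Pcdhac2 spaces the axons of serotonergic neurons in mouse. The alternate genes together took 4.44 RPM in KO and 8.27 in WT, a ratio of 0.538 (0.427 to 0.676). They took 4.18 in shMef2c and 13.3 in shCtrl, a ratio of 0.312 (0.250 to 0.388). The C-type pair ran the other way in KO, with 50 reads against 29 in WT, a ratio of 1.75 (1.08 to 2.86), but not in shMef2c, with 24 reads against 48 in shCtrl, a ratio of 0.488 (0.286 to 0.813). The alternate genes were also lower against the other control, at 0.334 for KO over shCtrl (0.268 to 0.412) and 0.504 for shMef2c over WT (0.398 to 0.636). The direction of the C-type pair depended on the control taken, at 1.02 for KO over shCtrl (0.674 to 1.55), 0.834 for shMef2c over WT (0.465 to 1.48) and 1.71 for shCtrl over WT (1.06 to 2.81).

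Pcdha12 stood at 0.12 FPKM in KO and 0.23 in WT, and at 0.09 in shMef2c and 0.56 in shCtrl. Pcdhac2 stood at 0.25 FPKM in KO and 0.13 in WT, and at 0.12 in shMef2c and 0.30 in shCtrl. Pcdha2 stood at 0.10 FPKM in KO and 0.23 in WT, and at 0.05 in shMef2c and 0.40 in shCtrl. These genes had few reads, the most being 75.1 for Pcdha12 in shCtrl. Pcdha10 stood at 0.06 FPKM in KO and 0.27 in WT, and at 0.18 in shMef2c and 0.26 in shCtrl, so its low value was that of KO. Pcdha3 stood at 0.15 FPKM in KO, WT and shMef2c and at 0.31 in shCtrl. Of the 14 Pcdha genes, 5 were 2-fold or more lower and 2 higher in KO, and 7 were lower and 2 higher in shMef2c. Of all features with a read, 12.7% were 2-fold or more lower in KO and 15.2% in shMef2c, and 15.6% were 2-fold or more higher in KO and 15.5% in shMef2c. Of those with no more reads than the most abundant Pcdhb gene, 22.3% were lower in KO and 25.3% in shMef2c. In the same range 29.6% were higher in KO and 28.1% in shMef2c. The count of higher Pcdha genes was thus not above the background. Pcdha6 had 2.52 reads in shMef2c and was not listed in shCtrl, where it was taken as 0, and Pcdha7 was listed in neither of these libraries.

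The Pcdhg cluster was dominated by 1 gene. Pcdhgc3, a C-type gene expressed in many tissues besides neurons, took 49.9% of Pcdhg reads in KO and 58.5% in WT, and 45.1% in shMef2c and 52.8% in shCtrl. It stood at 12.01 FPKM in KO and 23.7 in WT, and at 13.1 in shMef2c and 17.9 in shCtrl. Its read share had a ratio of 0.506 for KO over WT (0.475 to 0.539) and 0.730 for the shMef2c pair (0.684 to 0.779). The control libraries differed for Pcdhgc3 by 0.754 for shCtrl over WT (0.713 to 0.798), so the shMef2c difference was about as large as that between the controls. Without Pcdhgc3, the Pcdhg sum stood at 0.714 for KO over WT (0.667 to 0.764) and 0.995 for shMef2c over shCtrl (0.934 to 1.06).

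The other Pcdhg genes split by perturbation and by gene. Pcdhgc4, which in mouse is needed for the survival of spinal interneurons, stood at 0.51 FPKM in KO and 1.09 in WT, and at 0.86 in shMef2c and 0.84 in shCtrl. The B-type genes together had a ratio of 0.565 for KO over WT (0.493 to 0.646) and 0.854 for shMef2c over shCtrl (0.755 to 0.965). The A-type genes had ratios of 0.831 (0.765 to 0.904) and 1.07 (0.986 to 1.16) in the same pairs. Of the 22 genes, 18 had a smaller share in KO than in WT, against 48% of all features with a read, and 4 of them were 2-fold or more lower, against 12.7%. In shMef2c 12 were smaller and 10 larger than in shCtrl, against 53.8% of features smaller, which is near the background.

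Pcdhga1, the first gene of the cluster, was higher in both perturbed cultures. It stood at 0.98 FPKM in KO and 0.62 in WT, a ratio of read shares of 1.57 (1.16 to 2.12). It stood at 1.10 FPKM in shMef2c and 0.54 in shCtrl, a ratio of 2.06 (1.51 to 2.84). Its neighbour Pcdhga2 was higher too, at 1.01 FPKM in KO and 0.83 in WT, and at 1.56 in shMef2c and 0.82 in shCtrl, although for KO its counting interval included 1 (0.933 to 1.62). Pcdhga11 stood at 1.25 FPKM in KO and 1.80 in WT, and at 1.09 in shMef2c and 1.98 in shCtrl, lower in both perturbed cultures. Pcdhga7 stood at 1.5 FPKM in KO and 1.56 in WT, and at 1.37 in shMef2c and 1.34 in shCtrl, close within each pair. Pcdhga3 stood at 0.89 FPKM in KO and 1.60 in WT, and at 1.55 in shMef2c and 1.25 in shCtrl, so its low value was that of KO. How the authors' counting divided reads of the shared constant exons among these genes is not given in the labels or headers.

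**Figure D3:**
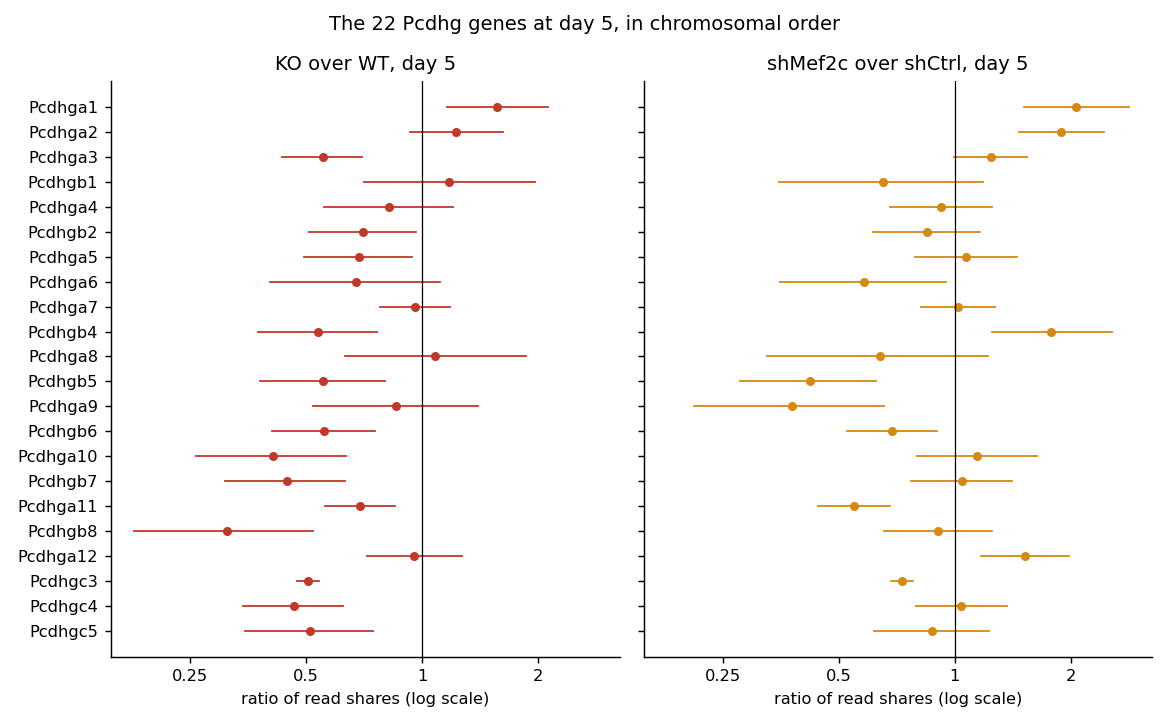
Ratio of read shares (horizontal axes, log scale) of the 22 Pcdhg genes in chromosomal order from top to bottom, for KO over WT (left) and shMef2c over shCtrl (right) at day 5; points are single pairs of libraries, lines are exact 95% counting intervals and the vertical line marks equal shares. In KO 18 points lie left of the line and in shMef2c 12, with Pcdhga1 to its right in both panels (1.57 and 2.06).

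Among the non-clustered genes, Pcdh8 and Pcdh18 carried most of the difference. Pcdh8 is known from the paraxial mesoderm of vertebrate embryos and from synapses, where it controls the removal of cadherins. It stood at 3.24 FPKM in KO and 13.7 in WT, and at 3.83 in shMef2c and 13.3 in shCtrl. Its log2 ratio on the value + 1 scale was -1.79 in KO over WT and -1.57 in shMef2c over shCtrl. The control libraries were close, with a ratio of read shares of 0.973 for shCtrl over WT (0.903 to 1.05). Pcdh18, a delta-type protocadherin first found in mouse as a partner of the adaptor Dab1, stood at 3.44 FPKM in KO and 7.27 in WT, and at 3.62 in shMef2c and 8.30 in shCtrl. Its log2 ratio was -0.90 in KO over WT and -1.01 in shMef2c over shCtrl. For both genes the perturbed libraries lay below both controls and close to each other.

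The promoters of these genes are shown because both genes were lower in both perturbed cultures while lying on different chromosomes. Each window runs 250 bases before to 50 bases after the gene's start in RefSeq's annotation of GRCm38.p6, on the minus strand, at chr14:79771263-79771562 for Pcdh8 and chr3:49757267-49757566 for Pcdh18. Capitals mark ACAAAG, the core letters of SOX-type sites, and CCAAT, each on either strand (read here also as CTTTGT and ATTGG).
Pcdh8: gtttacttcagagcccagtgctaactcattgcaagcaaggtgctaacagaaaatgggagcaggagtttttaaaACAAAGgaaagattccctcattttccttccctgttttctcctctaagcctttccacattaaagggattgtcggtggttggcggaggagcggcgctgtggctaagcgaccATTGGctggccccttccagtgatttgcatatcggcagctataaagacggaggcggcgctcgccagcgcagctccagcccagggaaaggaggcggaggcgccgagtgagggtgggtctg
Pcdh18: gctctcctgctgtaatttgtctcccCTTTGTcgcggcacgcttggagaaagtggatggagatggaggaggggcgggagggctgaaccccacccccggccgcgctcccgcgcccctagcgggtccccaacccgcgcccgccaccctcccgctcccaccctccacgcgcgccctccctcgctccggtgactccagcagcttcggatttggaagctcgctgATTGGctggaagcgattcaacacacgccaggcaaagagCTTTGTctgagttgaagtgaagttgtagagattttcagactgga
ACAAAG occurs 1 time in the Pcdh8 window and 2 times in the Pcdh18 window, and 18.7% of the 32851 promoter windows in the same table hold it. CCAAT occurs 1 time in each, and 37.4% of all windows hold it. Pcdh10 and Pcdh17, described below, were also lower in both perturbed cultures, and their windows are not shown. Each of those windows has no ACAAAG and 2 CCAAT matches. Pcdh19, which was not lower in either perturbed culture, has 1 CCAAT match. ACAAAG was thus not shared by all the lower genes, and CCAAT was not confined to them. TATAAA occurs 1 time in Pcdh8 and not in Pcdh18, and 13.6% of windows hold it. The MEF2 consensus has no match on either strand in these 2 windows and occurs in 3.19% of windows, and the E-box CANNTG, with a match in 72.3% of windows, has none in them either. The window of Pcdh20, not shown, does hold 1 MEF2 match. Pcdh20 had 3 reads in shMef2c and 10 in shCtrl at day 5. GC content is 54.3% for Pcdh8 and 63.0% for Pcdh18, against a median of 52.7%. These matches describe letters only. Of the 70 genes, windows were taken for 9, all of them non-clustered. Windows of the clustered genes were left out and were not searched for any of these motifs, so nothing is said here about their promoters.

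Pcdh1 and Pcdh7 did not follow the same pattern. Pcdh1, an epithelial and axial protocadherin on chromosome 18, stood at 8.94 FPKM in KO and 4.98 in WT, a ratio of read shares of 1.72 (1.56 to 1.91), and at 5.35 in shMef2c and 5.02 in shCtrl. KO was thus the high library, and the other 3 were close together. Pcdh7, which in Xenopus takes part in neural tube formation, stood at 1.34 FPKM in KO and 2.65 in WT, a ratio of 0.451 (0.382 to 0.532), and at 5.38 in shMef2c and 4.48 in shCtrl. For Pcdh7 the hairpin cultures lay above the other 2, and the control difference was 1.80 for shCtrl over WT (1.61 to 2.02). Pcdh19, the gene of an X-linked epilepsy in humans, stood at 0.58 FPKM in KO and 0.57 in WT, and at 0.73 in shMef2c and 0.46 in shCtrl.

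The other 7 non-clustered genes were below 1 in every library. Pcdh17, which promotes collective axon extension in mouse, stood at 0.16 FPKM in KO and 0.41 in WT, and at 0.08 in shMef2c and 0.46 in shCtrl. Pcdh10, which recruits actin regulators to cell contacts, stood at 0.21 FPKM in KO and 0.42 in WT, and at 0.14 in shMef2c and 0.83 in shCtrl. Both were lower in each perturbed library than in each control. Pcdh9, Pcdh11x, Pcdh12, Pcdh15 and Pcdh20 had at most 63 reads in any library. Over the 12 non-clustered genes, 6 were 2-fold or more lower in KO than in WT and 8 in shMef2c than in shCtrl, against 12.7% and 15.2% of all features with a read. None was 2-fold higher in either pair, against 15.6% in KO and 15.5% in shMef2c.

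**Figure D4:**
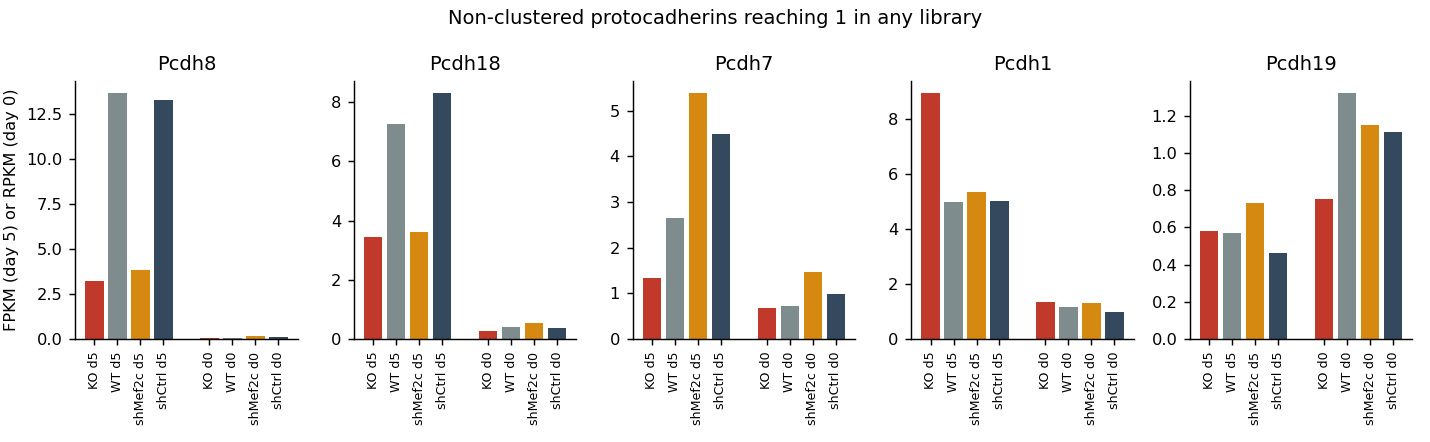
Levels of the 5 non-clustered protocadherins that reached 1 in any library (vertical axes, FPKM at day 5 and RPKM at day 0, set side by side although made separately), with 1 bar for each library. Pcdh8 and Pcdh18 are low in KO and shMef2c at day 5 (3.24 and 3.83 for Pcdh8), Pcdh1 is high in KO (8.94), Pcdh7 is high in both hairpin cultures and Pcdh19 is highest in WT at day 0 (1.32).

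By the value + 1 rule, 3 of the 10 protocadherins with a mean of 1 or more were lower in KO than in WT (Pcdhb11, Pcdhb22 and Pcdh8), against 3.26% of all such features, and none was higher, against 4.05%. Of 11 such genes, 4 were lower in shMef2c than in shCtrl (Pcdhb11, Pcdhb22, Pcdh8 and Pcdh18), against 4.78%, and none was higher, against 4.49%. The authors' deposited table of KO against WT lists 22 protocadherins, all as lower: 14 Pcdhb, 4 Pcdhg, 3 non-clustered and 1 Pcdha gene. In all, the authors' deposited table of KO against WT lists 1102 features as lower, 5.23% of the 21069 in the day 5 files, and 1151 as higher, 5.46%. The authors' deposited table of shMef2c against shCtrl lists 33, of which 32 are lower. Those are 20 Pcdhb, 5 Pcdha, 5 non-clustered and 2 Pcdhg genes, and Pcdhga1 is listed as higher. In all, the authors' deposited table of shMef2c against shCtrl lists 1529 features as lower, 7.26% of those in the day 5 files, and 1229 as higher, 5.83%.

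The control cultures also differed from each other in Pcdhb reads. All 22 Pcdhb genes had a larger share of reads in shCtrl than in WT, against 56.4% of all features with a read in that pair. For 3 of them the difference was 2-fold or more, against 10.9% of those features and 21.2% of those in the same range of reads. That count was thus not above the background. The median Pcdhb ratio was 1.48. The Pcdha sum was higher in shCtrl as well, at 1.62 (1.38 to 1.91). Setting each perturbed library against the other control gave a Pcdhb ratio of 0.201 for KO over shCtrl and 0.258 for shMef2c over WT. The Pcdhb difference was therefore more than 2-fold against either control, while its size depended on the control taken. By the value + 1 rule 0 of 13 protocadherins differed 2-fold between the controls, against 0.724% of features higher and 0.272% lower.

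In stem cells at day 0 the Pcdhb genes were nearly silent and KO did not stand below WT. They took 3.50 RPM in KO and 3.07 in WT, from 71 and 64 reads, a ratio of 1.14 (0.802 to 1.62). They took 5.84 in the library labelled shMef2c and 3.31 in shCtrl, from 121 and 69 reads, a ratio of 1.76 (1.30 to 2.40). Of the 22 genes, 10 had a larger share in KO than in WT and 10 a smaller one, against 56.4% and 43.6% of all features with a read. In the library labelled shMef2c, 10 genes were 2-fold or more higher than in shCtrl, against 9.89% of all features with a read and 34.5% of those in the same range of reads. The summed level of 18 feeder fibroblast markers moved with it, at 420.7 RPKM in the library labelled shMef2c and 257.5 in shCtrl, and at 237.8 in KO and 249.9 in WT. Of the 16 markers with a mean of 1 or more, 0 were below shCtrl in the library labelled shMef2c, and their median log2 ratio was 0.67. At day 0 none of the 18 was at 0 in any library. The part of feeder RNA in these protocadherin values was not tested.

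Pcdhg genes were well represented in the day 0 libraries too, where the part of feeder RNA was not tested. They took 155 RPM in KO and 126 in WT, a ratio of 1.24 (1.17 to 1.30), and 186 in the library labelled shMef2c and 160 in shCtrl, a ratio of 1.16 (1.10 to 1.21). The control libraries differed by 1.27 (1.21 to 1.34), as much as KO from WT. Pcdhgc3 stood at 13.6 RPKM in KO and 10.7 in WT, and at 17.2 in the library labelled shMef2c and 13.8 in shCtrl. Pcdhga11 stood at 1.73 RPKM in KO and 1.95 in WT, and at 2.76 in the library labelled shMef2c and 2.54 in shCtrl. Pcdhga12 stood at 2.01 RPKM in KO and 1.76 in WT, and at 1.98 in the library labelled shMef2c and 2.34 in shCtrl. Pcdhga1 stood at 2.36 RPKM in KO and 1.13 in WT, and at 1.60 in the library labelled shMef2c and 1.89 in shCtrl, so KO was its high and WT its low library. Pcdhgc5 stood at 1.60 RPKM in KO and 1.82 in WT, and at 1.81 in the library labelled shMef2c and 1.53 in shCtrl.

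Of the Pcdhb genes at day 0, Pcdhb17 and Pcdhb22 had the highest levels. Pcdhb17 stood at 0.18 RPKM in KO and 0.15 in WT, and at 0.37 in the library labelled shMef2c and 0.26 in shCtrl. Pcdhb22 stood at 0.22 RPKM in KO and 0.14 in WT, and at 0.33 in the library labelled shMef2c and 0.17 in shCtrl. Pcdhb5, Pcdhb14 and Pcdhb18 lay at 0.12 RPKM or below in every library, and Pcdhb11 had at most 1 read. Among Pcdha genes only Pcdhac2 exceeded 0.1 RPKM, at 0.12 in KO and 0.13 in WT, and at 0.24 in the library labelled shMef2c and 0.20 in shCtrl. Among non-clustered genes, Pcdh19 stood at 0.75 RPKM in KO and 1.32 in WT, and at 1.15 in the library labelled shMef2c and 1.11 in shCtrl, so KO was the low library. Pcdh1 stood at 1.34 RPKM in KO and 1.15 in WT, and at 1.32 in the library labelled shMef2c and 1.00 in shCtrl. Pcdh7 stood at 0.68 RPKM in KO and 0.73 in WT, and at 1.46 in the library labelled shMef2c and 0.98 in shCtrl, where the library labelled shMef2c was the high one. Pcdh8 and Pcdh18 lay at 0.55 RPKM or below in all 4 libraries.

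By the value + 1 rule no protocadherin differed 2-fold at day 0. That held for 0 of 7 genes between KO and WT (1.35% of features higher, 1.58% lower), 0 of 12 between the library labelled shMef2c and shCtrl (0.132% and 0.0991%), and 0 of 8 between shCtrl and WT (0.755% and 0.512%).

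The day 5 and day 0 values come from tables that were normalised separately, so the following levels are set side by side as read shares. Read shares remove scaling only. The tables also differ in their features, 21069 at day 5 and 19011 at day 0, and may differ in how reads were assigned. Differences between days and between tables cannot be told apart. The Pcdhb share at day 5 was 4.06 times that at day 0 in KO and 15.5 times in WT, and 2.10 times in shMef2c and 21.2 times in shCtrl. In WT 21 of the 22 Pcdhb genes were 2-fold or more higher at day 5, against 22.4% of all features with a read. In shCtrl all 22 were, against 23.6%. In KO 17 were, against 17.3%, and in shMef2c 10 were, against 15.2%. Every Pcdhb gene but Pcdhb1 in WT thus had a larger share at day 5 in both control cultures. The 2-fold counts rest on few day 0 reads, with Pcdhb sums of 71 in KO and 64 in WT. The sums were 121 in the library labelled shMef2c and 69 in shCtrl. The counting interval lay wholly above 1 for 11 Pcdhb genes in KO and 20 in WT, and for 4 in shMef2c and 20 in shCtrl. The Pcdha sum was higher at day 5 in all 4 lines, by 5.12 times in KO and 7.23 times in WT, and by 2.39 times in shMef2c and 8.28 times in shCtrl. The Pcdhg sum was 0.714 times its day 0 share in KO and 1.49 times in WT, and 0.720 times in shMef2c and 0.975 times in shCtrl. Pcdh8 stood at 0.19 RPKM or less in every day 0 library and at 3.24 FPKM or more in every day 5 library. The 18 feeder fibroblast markers took 1153 RPM at day 0 and 188 at day 5 in KO, and 1240 and 201 in WT. They took 2067 and 193 in the libraries labelled shMef2c, and 1267 and 216 in shCtrl. The part of feeder RNA in these differences between days was not tested.

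As a set, the genes around the clusters did not share the Pcdhb pattern. Taf7, a transcription initiation factor gene that lies between Pcdhb and Pcdhg, stood at 28.9 FPKM in KO and 21.3 in WT, and at 35.0 in shMef2c and 24.9 in shCtrl. Zmat2, before the Pcdha cluster, stood at 63.7 FPKM in KO and 69.9 in WT, and at 59.2 in shMef2c and 74.6 in shCtrl. Diaph1, an actin nucleator gene just after Pcdhg, stood at 22.6 FPKM in KO and 11.4 in WT, and at 16.7 in shMef2c and 10.5 in shCtrl. Over 27 genes beside the clusters, 21 had a mean of 1 or more in each pair. Their median log2 ratio on the value + 1 scale was 0.14 in KO over WT and -0.02 in shMef2c over shCtrl. By the value + 1 rule 0 were 2-fold lower in either pair. Of all such features 3.26% were lower in KO and 4.78% in shMef2c, so this count is near the background. The same rule called 2 Pcdhb genes lower in each pair, the only 2 with a mean of 1 or more. This scale compresses low values, as for Rell2, after the Pcdhg cluster. Rell2 stood at 1.17 FPKM in KO and 0.91 in WT, and at 0.53 in shMef2c and 1.64 in shCtrl. Read shares of these genes were not compared. Pura was the one 2-fold higher in KO (8.88 FPKM, against 3.60 in WT) and Spry4 the one in shMef2c (5.91 FPKM, against 1.45 in shCtrl). The medians over all features were 0.00 and -0.05.

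Known regulators of the clustered promoters differed little. The 25 genes listed include Ctcf and the cohesin subunits, which loop these promoters to their enhancers, and the repressors Smchd1, Setdb1 and Wiz. Their median log2 ratio was 0.13 in KO over WT and -0.09 in shMef2c over shCtrl, with 1 gene 2-fold higher and 0 lower in each pair. That gene was Tet1, a DNA demethylase, at 12.3 FPKM in KO and 4.68 in WT, and at 8.72 in shMef2c and 3.34 in shCtrl. Dnmt3b, the methyltransferase of these promoters in early mouse embryos, stood at 86.7 FPKM in KO and 60.3 in WT, and at 97.9 in shMef2c and 50.8 in shCtrl. Rest, a repressor of neuronal genes, stood at 13.3 FPKM in KO and 7.01 in WT, and at 12.97 in shMef2c and 6.69 in shCtrl. All 3 were higher in both perturbed cultures, and only Tet1 passed 2-fold.

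Of 20 intracellular partners of protocadherins, 0 differed 2-fold between KO and WT. Between shMef2c and shCtrl 1 was higher, the kinase gene Ptk2b, at 3.24 FPKM and 1.06 FPKM, and 0 were lower. The medians were 0.02 in KO over WT and -0.06 in shMef2c over shCtrl. Among other cadherin genes, more were 2-fold lower than higher in both pairs. Of 23 with a mean of 1 or more, 4 were lower and 1 higher in KO (median log2 ratio -0.46). Of 22, 6 were lower and 1 higher in shMef2c (median -0.53). Celsr2, a planar cell polarity cadherin, stood at 4.37 FPKM in KO and 14.1 in WT, and at 3.04 in shMef2c and 14.1 in shCtrl. Dchs1, the ligand of Fat cadherins, stood at 1.87 FPKM in KO and 5.42 in WT, and at 1.44 in shMef2c and 4.13 in shCtrl.

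Cell state markers moved with these groups at day 5. Of 18 naive pluripotency markers, 13 were 2-fold higher in KO than in WT (median log2 ratio 1.41) and 18 in shMef2c than in shCtrl (1.83). Of the neural progenitor markers with a mean of 1 or more, 6 of 18 were lower in KO (-0.79) and 12 of 17 in shMef2c (-1.71). Of 18 neuronal markers, 5 were lower and 1 higher in KO (-0.39), and 16 were lower in shMef2c (-2.48). Nes, a marker of neural progenitors, stood at 11.8 FPKM in KO and 45.7 in WT, and at 10.0 in shMef2c and 40.2 in shCtrl. The summed neural progenitor level was 364 FPKM in KO and 869 in WT, and 304 in shMef2c and 917 in shCtrl. No neural progenitor, neuronal or naive pluripotency marker was at 0 in any day 5 library. Of 12 mesoderm and endoderm markers with a mean of 1 or more, 5 were 2-fold higher and 4 lower in KO (median 0.44). Of 11 in shMef2c, 5 were higher and 2 lower (0.68). Among them T, the mesoderm gene brachyury, stood at 0.35 FPKM in KO and 40.5 in WT. It stood at 105.9 FPKM in shMef2c and 36.6 in shCtrl. The part of cell state in the protocadherin differences was not tested.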

How the data were processed

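Samples were grouped by their labels. Each day 5 file deposited by the authors holds expected counts (estimated reads) and FPKM, per the file headers. The deposited day 0 table holds RPKM and expected counts for its 4 libraries, per the file headers. The authors also deposited day 5 comparison tables with a log2 ratio and a false discovery rate (adjusted p-value) per gene, per the file headers. Aligners and counters named in the submitters' processing notes are RSEM, Bowtie2, Bowtie, HISAT2 and HISAT, with build mm9 and no roles; strand use is not given. Genes below 0.01 FPKM are not listed at day 5 and were taken as 0.

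Expected counts were rounded to whole reads and summed per cluster. Ratios of read shares carry exact Clopper-Pearson 95% intervals (scipy 1.17.1). Features were also called at 2-fold on log2(value + 1) when their mean was 1 or more; for day 5 over day 0 these ratios were centred on the median. Read shares over all members lead because that filter leaves few Pcdhb genes, a choice made after seeing the data. The value + 1 call and the intervals were tested on simulated data that held counting error only. Changes were placed in genes above the level of most Pcdha and Pcdhb genes, and the intervals were run at a single setting. The simulation thus covers neither those scarce genes nor differences between cultures. Chromosomes, gene order and promoters come from RefSeq GRCm38.p6, not the build of the files. Members and gene lists were chosen with earlier results of these data known. Named genes were the 5 members of a cluster with the highest mean per day, non-clustered members reaching 1 and members past 2-fold; others named were chosen after their values were seen. Alternatives used edgeR 4.0.16 and DESeq2 1.42.0 only for scaling factors.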

Additional observations from a re-analysis of the deposited data

Results flagged for a closer look

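Some ratios of summed read shares ran in opposite directions in groups given the same contrast. None of these differences between groups was tested, and the libraries have no replicates. For shMef2c over shCtrl, with the day 0 library named by its label, the Pcdhb ratio was 0.174 at day 5 and 1.76 at day 0, the Pcdhg ratio was 0.855 at day 5 and 1.16 at day 0, and the non-clustered ratio was 0.628 at day 5 and 1.27 at day 0. For KO over WT, the Pcdhg ratio was 0.592 at day 5 and 1.24 at day 0. For day 5 over day 0, the Pcdhg ratio was 0.714 in KO and 1.49 in WT. At day 0, the non-clustered ratio was 0.808 for KO over WT and 1.27 for the library labelled shMef2c over shCtrl; without Pcdh19 the KO over WT ratio was 1.01, so its direction rests on that gene. Mef2c itself was above shCtrl in that day 0 library.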

How the results depend on the processing

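No paired analysis was possible because each group has 1 library and the labels give no replicate numbers; leaving out a replicate was not possible for the same reason. Of the counts of 2-fold genes, 63 alternatives stayed within 1.5 times the count given and 17 moved. For KO over WT at day 5 the count of 3 became 1 with a mean of 5 or more, 7 at 1.5-fold and 0 at 4-fold. It became 1 after rescaling to a common total and 5 of 11 with shCtrl as control, beside 10.2% of all features tested. On read shares with 20 or more reads it became 29 of 58, beside 17.4% of all such features. For shMef2c over shCtrl at day 5 the count of 4 became 2 with a mean of 5 or more and 0 at 4-fold. With WT as control it became 2 of 11, beside 7.21% of all features tested. On read shares it became 36 of 61, beside 20.3%. For shCtrl over WT the count of 0 became 1 at 1.5-fold at day 5. On read shares it became 9 of 62 at day 5, beside 6.55% of features, and 1 of 32 at day 0, beside 5.2%. For KO over WT at day 0 the count of 0 became 1 with a pseudocount of 0.1 and 1 at 1.5-fold. On read shares it became 4 of 32, beside 8.92% of features. For day 5 over day 0 in KO the count of 3 became 5 with a pseudocount of 0.1. Where an alternative has no share beside it, the share over all features was not computed. The read-share alternative changes the measure, the pseudocount and the filter at once, and which of them moves the counts was not tested.

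Of the summed ratios, 87 alternatives moved within the counting interval, 14 moved beyond it and 1 reversed. Without its most abundant gene, the ratio became 0.714 for Pcdhg and 0.823 for non-clustered genes in KO over WT at day 5. In shMef2c over shCtrl at day 5 it became 0.141 for Pcdhb, 0.995 for Pcdhg and 0.506 for non-clustered genes. In shCtrl over WT it became 0.948 for Pcdhg and 1.26 for non-clustered genes at day 5, and 1.10 for non-clustered genes at day 0. In shMef2c over shCtrl at day 0 Pcdhg became 1.10. The non-clustered ratio of KO over WT at day 0 reversed to 1.01 without Pcdh19. In shMef2c over shCtrl, TMM scaling gave 0.911 for Pcdhg and 0.669 for non-clustered genes at day 5 and 1.10 for Pcdhg at day 0, DESeq2 size factors gave 1.10 for Pcdhg at day 0, and summed FPKM gave 0.577 for non-clustered genes at day 5. The Pcdhb ratios at day 5 kept their direction under every alternative run. Depth limits single Pcdha and Pcdhb genes, many of which have under 20 reads in a library.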
